A study of Mus musculus with 4 samples.

Results

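The Toll-like receptors and their closest partners were followed across cells from mouse collecting lymphatic vessels and adjoining tissue. The members were 10 genes of the 32285 measured, taken by symbol: the receptors Tlr1, Tlr2, Tlr3, Tlr4, Tlr5, Tlr7 and Tlr9, the co-receptors Cd14 and Ly96, and the adaptor Myd88. All 10 symbols were found, and no filter on level was applied to choose them. Their levels were read in 19 classes of cells that marker genes set apart, and in subsets of the macrophage-like, dendritic-like, lymphatic endothelial-like and fibroblast-like cells. A class carries the ending "-like" because it rests on markers and not on a sort.

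The cells came from 4 male and 4 female C57BL/6J mice, a standard inbred strain, aged 12 to 14 weeks, with no transgene or treatment named in the labels. The vessels of a mouse, pooled over 4 regions (mesenteric, popliteal, superficial cervical and inguinal axillary), were dissociated with enzymes at body temperature. Cells of a sex were tagged with oligonucleotides and captured together, so the regions cannot be told apart in these data. The labels do not tie a barcode suffix (1 to 8) to a mouse or sex, so all cells were treated as 1 pooled sample, no comparison of the sexes was made, and no p-value is given.

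The 24046 barcodes held 232753017 gene UMIs, that is, distinct captured RNA molecules, and the 8 suffixes held 23828933 to 32467001 each. After filters and removal of 719 probable doublets, 22947 cells were left, with a median of 8686 UMIs, and 1903 of them stayed without a class. No barcode sequence was shared among suffixes 1 to 4 or among suffixes 5 to 8, and 44 were shared across these sets. The classes the text turns on were 8631 fibroblast-like, 5553 macrophage-like, 796 dendritic-like, 581 lymphatic endothelial-like, 301 monocyte-like and 259 blood endothelial-like cells. Prox1, the transcription factor that marks lymphatic endothelium, was found in 94.3% of the lymphatic endothelial-like and 5.79% of the blood endothelial-like cells. Endothelial-like subclusters were named lymphatic when at least 50% of their cells held Prox1, and blood otherwise. The Prox1 shares follow from that rule and are no separate check of it. The monocyte-like cells stood on weaker markers: Ccr2 was found in 85.0% of them, but Ly6c2 in 14.0% and Chil3 in 6.31%, and the macrophage gene C1qa in 64.8%. Only 4 of the suffixes held epithelial-like cells.

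Levels are counts per 1000000: the summed UMIs of a gene over all UMIs of the class (CPM), with exact 95% Poisson intervals. For a ratio between classes the interval is exact and conditional on the sum, and shares of cells have exact Clopper-Pearson 95% intervals. All of these cover counting error only. The values of the 8 suffixes are given as lowest, median and highest, as values of unlabelled samples. A pair of levels are called apart when they differ by 2-fold or more and the interval of the ratio excludes 1, among genes at 10 CPM or more in either class. A gene that reaches 10 CPM only in the class where it is high is more likely to be called apart, so counts over the genes tested are descriptions.

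Toll-like receptors are membrane proteins that bind molecules typical of microbes and of damaged cells. Tlr4, with Ly96 (MD-2) and Cd14, detects bacterial lipopolysaccharide. Tlr2, paired with Tlr1 or Tlr6, detects lipoproteins, and Tlr5 detects flagellin. Tlr3, Tlr7 and Tlr9 sit in endosomes and detect double-stranded RNA, single-stranded RNA and unmethylated CpG DNA. All of these except Tlr3 signal through Myd88 to NF-kB and to interferon regulatory factors, while Tlr3 uses the adaptor Ticam1 (TRIF) and Tlr4 uses both.

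The sequence just before the start of a gene is where its transcription is set up, and it is shown for the members that could be matched, not chosen by their levels. RefSeq promoters (build GRCm38.p6, 250 bases before each start) matched 6 of the 10 members, and 5 of these had bases to print. Only bases outside GENCODE exons of the gene are printed, 5′ to 3′ on the strand of the gene, with capitals for matches to the motifs named afterwards. The stretches are chr1:182954538-182954787 (plus strand) for Tlr5, chr3:83841768-83841858 (minus) for Tlr2, chr5:64933564-64933808 (minus) for Tlr1, chr9:106222348-106222597 (plus) for Tlr9 and chr9:119340042-119340268 (minus) for Myd88. The Myd88 stretch lies before the start that RefSeq lists and inside the span of the gene, in an intron of another annotated transcript that begins further upstream.
Tlr5: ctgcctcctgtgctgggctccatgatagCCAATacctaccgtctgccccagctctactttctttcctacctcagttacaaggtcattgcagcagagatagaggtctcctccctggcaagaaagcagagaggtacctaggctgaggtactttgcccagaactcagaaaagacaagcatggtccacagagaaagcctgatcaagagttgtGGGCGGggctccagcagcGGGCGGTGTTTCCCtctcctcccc
Tlr2: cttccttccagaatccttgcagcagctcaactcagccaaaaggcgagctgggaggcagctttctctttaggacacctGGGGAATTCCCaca
Tlr1: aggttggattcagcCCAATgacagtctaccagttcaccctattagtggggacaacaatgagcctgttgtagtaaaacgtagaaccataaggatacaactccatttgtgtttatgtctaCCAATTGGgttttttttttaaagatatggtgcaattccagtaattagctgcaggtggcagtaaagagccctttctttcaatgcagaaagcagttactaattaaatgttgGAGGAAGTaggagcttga
Tlr9: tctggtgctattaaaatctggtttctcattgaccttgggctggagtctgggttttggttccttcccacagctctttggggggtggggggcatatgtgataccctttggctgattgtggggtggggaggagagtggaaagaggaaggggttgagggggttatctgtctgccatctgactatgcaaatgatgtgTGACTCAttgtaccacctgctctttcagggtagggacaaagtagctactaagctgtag
Myd88: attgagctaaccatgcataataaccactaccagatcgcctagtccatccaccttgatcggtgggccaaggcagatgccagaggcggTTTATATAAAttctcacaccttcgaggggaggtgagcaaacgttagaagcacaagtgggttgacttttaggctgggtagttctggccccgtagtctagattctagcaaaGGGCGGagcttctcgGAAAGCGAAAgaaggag

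Both strands were searched for 8 motifs: a PU.1 core with the letters GAGGAAGT, the GC box GGGCGG, the AP-1 motif TGANTCA, the C/EBP motif TTGCNNAA, the TATA box TATAAA, the box named CCAAT, an NF-kB type and an interferon regulatory factor (IRF) type. The NF-kB type was GGG before CC with 5 free bases between, and the IRF type was GAAA repeated after 2 free bases. Positions are counted back from the start that RefSeq lists. In Tlr1 the run GAGGAAGT lay 23 to 16 bases before the start, and 2.36% of 32851 promoters held this motif in a window of that length. Tlr1 also held 3 CCAAT matches, a box found in 33.5% of promoters. In Myd88 the run GAAAGCGAAA lay 40 to 31 bases before the start, a motif type held by 2.70% of promoters. Myd88 also held a GC box (29.4% of promoters) and overlapping TATA-type runs on opposite strands (11.4%), the latter 164 to 155 bases before the start. In Tlr9 the AP-1 run TGACTCA lay 58 to 52 bases before the start, against 6.75% of promoters. Tlr5 held a CCAAT box (33.8% of promoters) and 2 GC boxes (32.7%), and its NF-kB-type run, a type found in 45.8%, overlapped the second GC box. The NF-kB-type matches in Tlr2 lay 173 to 163 bases before the start and overlapped each other on both strands. Of all promoters, 16.3% held this motif in the 91 bases furthest from the start. The Tlr2 stretch has the same place before the RefSeq start but ends where a GENCODE exon begins, so the windows are not fully alike. These are matches of letters and show neither binding nor use of a site.

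Cd14, the co-receptor that hands lipopolysaccharide to the Tlr4 complex and also serves Tlr2, was highest, among classes of 50 or more cells, in the monocyte-like one at 619.6 CPM (588.7 to 651.8, 1498 UMIs). Over the suffixes the monocyte-like level had a lowest value of 455, a median of 653 and a highest of 737 CPM. Macrophage-like cells held 283 CPM (suffixes 174, 289 and 416), proliferating-like cells 185 CPM and dendritic-like cells 118 CPM (52.3, 114 and 179). The monocyte-like range lay above the macrophage-like range with no overlap, and the macrophage-like and dendritic-like ranges overlapped. Next came adipocyte-like cells at 81.2, epithelial-like at 56.6 and mesothelial-like cells at 26.5 CPM. The proliferating-like and adipocyte-like cells also held 27.4% and 18.1% of the macrophage-like level of the complement genes C1qa, C1qb and C1qc. Lymphatic endothelial-like (11.0 CPM), blood endothelial-like (11.4), innate lymphoid-like (10.8), B-like (8.41) and fibroblast-like cells (6.13) followed, and smooth muscle-like cells held 3.59 CPM. Below the mesothelial-like cells, no level differed from the next in the order by the rule above. Among the smallest classes, 21 neutrophil-like cells held 891 CPM on 40 UMIs and 26 plasmacytoid dendritic-like cells 108 CPM on 26 UMIs.

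Among the macrophage-like subsets, Cd14 was highest in the cells high in MHC class II, at 633 CPM (597 to 670). It was 386 CPM in the subset marked by Spic and Fcna, genes of red pulp macrophages, and 366 CPM in the subset marked by Lyz1 and Ear2. The interferon-response subset held 229.9 CPM and the Cd209-family-high subset, with the markers Lyve1 and Folr2 of tissue-resident macrophages, 180.0 CPM. The Cd209-family-high cells varied least over the suffixes (151, 181 and 224 CPM), and the Spic and Fcna cells ran from 203 to 643 CPM. A fibroblast-like subcluster of 137 cells led by Sfrp5 and Lypd2 held 57.1 CPM (44.0 to 73.0), above the class as a whole.

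Ly96 encodes MD-2, the protein that binds lipopolysaccharide on Tlr4, and the gene lies on chromosome 1, from 16688051 to 16709611 on the plus strand (ENSMUSG00000025779, GRCm38). Its highest level was in macrophage-like cells, at 84.9 CPM (82.2 to 87.7), with suffixes at 64.0, 84.6 and 95.1. Monocyte-like cells held 40.5 CPM (22.3, 36.1 and 65.7), and the pair of ranges touched only where the highest monocyte-like suffix met the lowest macrophage-like one. Mast-like (32.4 CPM, 14 UMIs), mesothelial-like (23.1), proliferating-like (21.4), B-like (19.6), adipocyte-like (19.3) and blood endothelial-like cells (18.3) lay lower. Lymphatic endothelial-like cells held 13.1 CPM and fibroblast-like cells 12.6 CPM, a ratio of 1.04 (0.853 to 1.26). Dendritic-like cells held 9.48, smooth muscle-like 8.24, T-like 7.82, epithelial-like 7.77 and innate lymphoid-like cells 5.62 CPM. Within the macrophage-like cells, Ly96 ran from 105 CPM in the Cd209-family-high subset to 33.9 CPM in the Lyz1 and Ear2 subset, whose suffixes (22.4, 32.3 and 42.0) lay below all 8 of the Cd209-family-high cells (84.4, 108 and 122).

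Tlr4 (ENSMUSG00000039005, chromosome 4, 66827584 to 66930284, plus strand) had a wider distribution than its co-receptors. Macrophage-like cells held 87.0 CPM (84.3 to 89.8), with suffixes at 78.1, 84.4 and 99.4. Fibroblast-like cells held 70.4 CPM (68.7 to 72.1), with suffixes at 60.1, 74.6 and 81.1. These ranges overlapped. The ratio of macrophage-like to fibroblast-like cells was 1.24 (1.19 to 1.29), above 1 in 7 of 8 suffixes. Blood endothelial-like cells held 66.9 CPM (55.3 to 80.2), spread from 16.6 to 105 over the suffixes. In lymphatic endothelial-like cells the level of Tlr4 was 4.64 CPM (3.33 to 6.29, 41 UMIs), with suffixes at 1.73, 4.82 and 5.92, all below every blood endothelial-like and fibroblast-like suffix. Dendritic-like cells held 5.33 CPM (45 UMIs), and 21 neutrophil-like cells had 6 UMIs.

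Between these lay adipocyte-like cells at 42.6 CPM, Schwann-like at 33.4, proliferating-like at 33.0, mesothelial-like at 29.5 and monocyte-like cells at 29.4 CPM, which did not differ beyond counting error from one neighbour to the next. Mast-like (23.1 CPM, 10 UMIs), epithelial-like (20.6), T-like (11.5), B-like (11.2), smooth muscle-like (10.7) and innate lymphoid-like cells (6.05) came below. The blood endothelial-like level came mostly from a subcluster of 76 cells led by Tacr1, Selp and Sele, the last pair being adhesion molecules of activated and venous endothelium: it held 102 of the 117 UMIs, at 106 CPM (86.3 to 129). The subcluster of 153 cells led by Rbp7 and Gpihbp1 held 16.3 CPM (7.47 to 31.0) and that of 30 cells led by Gkn3 and Sema3g 25.6 CPM (9.38 to 55.6). The pooled blood endothelial-like value of Tlr4 is therefore an average over unlike cells.

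At least 1 Tlr4 UMI was found in 44.2% of macrophage-like, 42.0% of fibroblast-like and 6.02% of lymphatic endothelial-like cells, with median depths of 7483, 11060 and 8638 UMIs. T-like cells, which served as a background class, had a share of 3.97% at a median of 4811 UMIs. When each cell was thinned to 1000 UMIs, the shares were 8.25% (7.54 to 9.00), 6.06% (5.57 to 6.59) and 0.880% (0.286 to 2.04), against 0.578% (0.0701 to 2.07) in T-like cells. This left out 12, 40, 13 and 7 shallower cells. The macrophage-like and fibroblast-like shares of Tlr4 lay above the background and the lymphatic endothelial-like share overlapped it.

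The fibroblast-like subsets differed in Tlr4. Cells marked by Col8a1 and Adamts16 held 102 CPM (95.8 to 109) and cells marked by Tcf21, Asb4 and Rspo3 100.3 CPM (94.3 to 107). The Pi16 and Dpp4 cells, the largest subset with 2849 cells, held 75.6 CPM, the Ngfr and Fgf10 cells 59.3 CPM and the Tspan11 and Pax1 cells 35.7 CPM (32.6 to 39). The Tspan11 and Pax1 suffixes (27.0, 35.9 and 43.2) lay below all suffixes of the Col8a1 and Adamts16 cells (74.9, 111 and 131). Of the macrophage-like subsets, Tlr4 was 103 CPM in the Cd209-family-high, 102 in the Spic and Fcna, 99.5 in the interferon-response, 54.1 in the MHC class II-high and 34.4 CPM in the Lyz1 and Ear2 subset. Tlr4 and Ly96 thus had the same subset at the top and at the bottom of the macrophage-like cells, while Cd14 did not. For Tlr4 the first 3 of these levels did not differ beyond counting error.

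Tlr2 (ENSMUSG00000027995, chromosome 3, 83836272 to 83841767, minus strand) was highest in monocyte-like cells, at 293 CPM (272 to 316), with suffixes at 161, 314 and 346. Macrophage-like cells held 229.6 CPM (225.2 to 234.2), with suffixes at 156, 223 and 282. The ranges overlapped, and the ratio was 1.28 (1.18 to 1.38), below the 2-fold limit. Proliferating-like cells held 155, adipocyte-like 74.7 and dendritic-like cells 61.0 CPM, and the 21 neutrophil-like cells 223 CPM on 10 UMIs. Mesothelial-like cells held 31.5 CPM (28.7 to 34.4) and fibroblast-like cells 18.7 CPM (17.8 to 19.6). For lymphatic endothelial-like cells Tlr2 stood at 12.6 CPM (10.3 to 15.1), with suffixes at 7.66, 12.7 and 18.6, below the fibroblast-like value in 8 of 8 suffixes and apart from it by less than 2-fold. Blood endothelial-like (17.2 CPM), epithelial-like (15.3), T-like (12.0), B-like (7.94), innate lymphoid-like (6.05) and smooth muscle-like cells (5.91) covered the rest.

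Among macrophage-like subsets Tlr2 was lowest in the Lyz1 and Ear2 cells, at 147 CPM, and higher in the Spic and Fcna (303 CPM) and MHC class II-high cells (313 CPM). In fibroblast-like subsets Tlr2 was 25.9 CPM in the Pi16 and Dpp4 and 25.1 CPM in the Col8a1 and Adamts16 cells, against 8.79 CPM in the Ngfr and Fgf10 cells. At least 1 Tlr2 UMI was found in 66.8% of macrophage-like and 14.3% of lymphatic endothelial-like cells, against 3.68% of T-like cells. Thinned to 1000 UMIs, these shares were 19.9%, 1.41% (0.610 to 2.76) and 0.867% (0.179 to 2.51), so the lymphatic endothelial-like share of Tlr2 was within the background at equal depth. Depths and cells left out were those given for Tlr4.

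Tlr1 (ENSMUSG00000044827, chromosome 5, 64924679 to 64933563, minus strand), the partner of Tlr2 for triacylated lipoproteins, lies next to its close relative Tlr6 on the same strand. Among classes its level was highest in monocyte-like cells, at 23.2 CPM (17.5 to 30.1, 56 UMIs), with suffixes at 6.35, 22.8 and 36.5. B-like cells held 15.9 CPM (11.0 to 22.2, 34 UMIs), a level that did not differ from the monocyte-like one beyond counting error. Macrophage-like cells held 7.98 CPM (7.16 to 8.86, 348 UMIs), with suffixes at 3.99, 8.11 and 11.3. The MHC class II-high subset stood out among them at 26.5 CPM (19.6 to 35), although 15 of its 49 UMIs came from suffix 8, at 108 CPM. Innate lymphoid-like (4.32 CPM, 10 UMIs), proliferating-like (5.34, 12 UMIs) and dendritic-like cells (2.84, 24 UMIs) were lower. Both endothelial-like classes had 1 UMI of Tlr1 each, and fibroblast-like cells had 8.

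Tlr5 (ENSMUSG00000079164, chromosome 1, 182954788 to 182976044, plus strand), the flagellin receptor, reached its highest class level in macrophage-like cells, 13.6 CPM (12.5 to 14.7, 592 UMIs), with suffixes at 7.97, 11.9 and 20.8. The Cd209-family-high subset held 16.6 CPM and the Lyz1 and Ear2 subset 3.63 CPM. Monocyte-like cells held 4.96 CPM (12 UMIs), mesothelial-like 3.64, epithelial-like 3.11 and fibroblast-like cells 1.19 CPM. Dendritic-like cells had 2 UMIs and lymphatic endothelial-like cells 1 UMI. Blood endothelial-like cells had none, which leaves an interval up to 2.11 CPM. Tlr5 had a UMI in 9.40% of macrophage-like cells and 0.283% of T-like cells (1.07% and 0% after thinning to 1000 UMIs, the latter with an interval up to 1.06%). Median depths were 7483 and 4811 UMIs, and 12 and 7 cells were left out.

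Tlr3 (ENSMUSG00000031639, chromosome 8, 45395665 to 45411080, minus strand) was the one member whose highest level was in dendritic-like cells, at 36.7 CPM (32.7 to 41.0), with suffixes at 24.4, 36.4 and 47.7. All but 3 of the 310 UMIs came from the type 1 subset of 321 cells, which carry the markers Xcr1 and Clec9a of cross-presenting dendritic cells. That subset held 78.6 CPM (70.0 to 87.9), with suffixes at 58.6, 78.3 and 101. The type 2 subset of 459 cells, marked by Cd209a and Mgl2, held 3 UMIs, or 0.683 CPM (0.141 to 2.00). No suffix of the type 2 cells exceeded 3.39 CPM, far below the lowest of the type 1 cells. A Tlr3 UMI was found in 49.5% of type 1 cells, 0.436% of type 2 cells and 1.42% of T-like cells, with median depths of 11541, 9469 and 4811 UMIs. After thinning, which left out 3, 0 and 7 cells, the type 1 share was 8.81% (5.93 to 12.5) and no type 2 or T-like cell kept a UMI, with intervals up to 0.800% and 1.06%.

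Outside the dendritic-like cells, Tlr3 was higher in endothelial-like and epithelial-like cells than in most immune classes. Blood endothelial-like cells held 17.7 CPM (12.0 to 25.2), epithelial-like 13 (10.48 to 15.9) and lymphatic endothelial-like cells 11.5 CPM (9.40 to 14.0), with lymphatic suffixes at 4.85, 12.4 and 19.9. Neighbours in that order did not differ beyond counting error. Fibroblast-like (7.70 CPM), mesothelial-like (7.48) and macrophage-like cells (7.40) were close to one another, and smooth muscle-like cells held 1.27 CPM. Within macrophage-like cells, Tlr3 reached 18.1 CPM (14.7 to 22.0) in the interferon-response subset and stayed at 7.05 CPM or lower in the other named subsets. The lymphatic endothelial-like level was 1.56 times (1.23 to 1.95) the macrophage-like and 1.50 times (1.21 to 1.84) the fibroblast-like level of Tlr3. The annotated gene Gm45542 overlaps Tlr3 on the other strand, and reads of the pair can be told apart only if strand was used in counting, which is not stated.

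Tlr7 (ENSMUSG00000044583, chromosome X, 167304929 to 167330558, minus strand), which lies next to Tlr8, was held by macrophage-like cells at 114.5 CPM (111.4 to 117.7), with suffixes at 96.0, 118 and 129. Monocyte-like cells held 91.8 CPM (80.1 to 105), with suffixes at 51.6, 85.4 and 153, a range that spans the macrophage-like one. Proliferating-like cells held 32.1 CPM, B-like 28.5 CPM (21.8 to 36.6) and adipocyte-like cells 27.3 CPM. The 26 plasmacytoid dendritic-like cells, a type known for Tlr7 and Tlr9, had 9 UMIs of Tlr7, or 37.5 CPM (17.1 to 71.1). Dendritic-like cells held 1.78 CPM (15 UMIs), and fibroblast-like cells 0.584 CPM (57 UMIs). Lymphatic endothelial-like cells had 2 UMIs and blood endothelial-like cells 1. Tlr7 was thus nearly limited to macrophage-like, monocyte-like, B-like and plasmacytoid dendritic-like cells and to the proliferating-like and adipocyte-like cells that held complement UMIs. Among macrophage-like subsets it ran from 174 CPM in the MHC class II-high to 41.1 CPM in the Lyz1 and Ear2 cells.

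Tlr7 had a UMI in 49.7% of macrophage-like cells and 0.637% of fibroblast-like cells, the background class for this gene, at median depths of 7483 and 11060 UMIs. Thinning to 1000 UMIs left out 12 and 40 cells and gave 11.3% and 0.0349%. Tlr9 (ENSMUSG00000045322, chromosome 9, 106222598 to 106226883, plus strand) was close to the detection limit everywhere. Macrophage-like cells had 63 UMIs, or 1.44 CPM (1.11 to 1.85). Dendritic-like cells had 7 UMIs, monocyte-like and B-like cells 3 each, and plasmacytoid dendritic-like cells 1. No Tlr9 UMI was found in fibroblast-like, lymphatic endothelial-like, blood endothelial-like or T-like cells, with intervals up to 0.0378, 0.417, 2.11 and 1.70 CPM. At this depth no order of Tlr9 levels among the immune classes could be given.

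Myd88 (ENSMUSG00000032508, chromosome 9, 119335934 to 119341411, minus strand) was found in every class, with its top level among classes of 50 or more cells in fibroblast-like cells, 86.9 CPM (85.1 to 88.8), with suffixes at 72.4, 80.0 and 108. Mesothelial-like cells held 72.7 CPM (35, 69.2 and 103), adipocyte-like cells 67.5 CPM and blood endothelial-like cells 65.2 CPM (33.1, 60.3 and 93.9). Proliferating-like (54.3 CPM), Schwann-like (52.4), smooth muscle-like (49.5), macrophage-like (48.3), dendritic-like (46.1) and monocyte-like cells (41.4) formed a middle group in which no neighbours differed beyond counting error. T-like (30.4 CPM), epithelial-like (28.8), NK-like (26.5) and lymphatic endothelial-like cells (21.4) were lower, with B-like (17.3) and innate lymphoid-like cells (16) at the bottom. The 26 plasmacytoid dendritic-like cells held 58.3 CPM on 14 UMIs, and the 21 neutrophil-like cells had 6 UMIs. Lymphatic endothelial-like suffixes (15.2, 21.4 and 35.6) lay below all macrophage-like (44.3, 48.7 and 54.5) and fibroblast-like suffixes. On the annotation, Myd88 overlaps Slc22a14 on its own strand and Acaa1a on the other, so some reads may not be assignable to 1 gene.

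Myd88 differed more between fibroblast-like subsets than between most classes. The Ngfr and Fgf10 cells held 153 CPM (144 to 162), the Tspan11 and Pax1 cells 125 CPM and the Tcf21, Asb4 and Rspo3 cells 121 CPM. The Pi16 and Dpp4 cells held 58.1 CPM and the Col8a1 and Adamts16 cells 37.2 CPM (33.3 to 41.4). Suffixes of the Ngfr and Fgf10 cells (115, 153 and 227) lay above all suffixes of the Col8a1 and Adamts16 cells (24.0, 36.4 and 67.3), although suffixes 5 to 8 had only 2 to 10 of the Ngfr and Fgf10 cells each. The subset with the highest Myd88 was therefore not the one with the highest Tlr4. Type 2 dendritic-like cells held 62.8 CPM of Myd88 and type 1 cells 28.4 CPM.

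**Figure D1:**
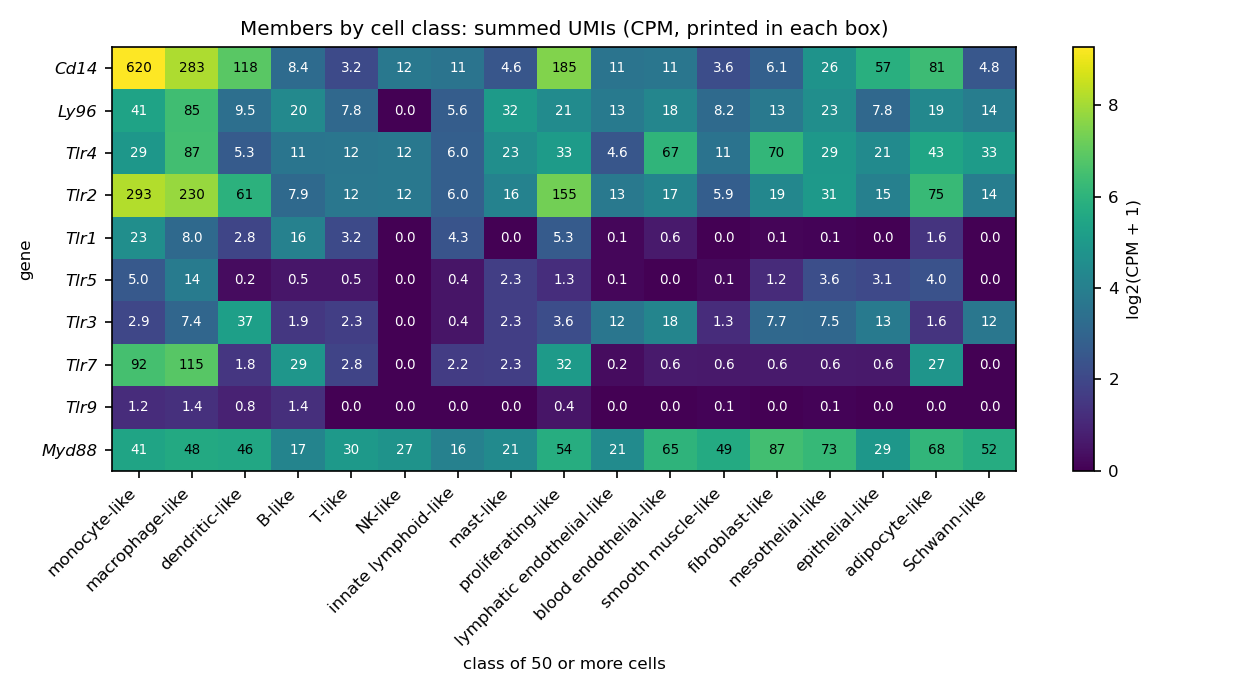
Level of each member (vertical axis) in each class of 50 or more cells (horizontal axis), as pooled CPM printed in each box and coloured by log2(CPM + 1). Cd14, Tlr2 and Tlr7 are brightest in monocyte-like and macrophage-like cells, Tlr3 in dendritic-like cells (37), and Myd88 in fibroblast-like cells (87), while Tlr9 is at 1.4 or less throughout.

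**Figure D2:**
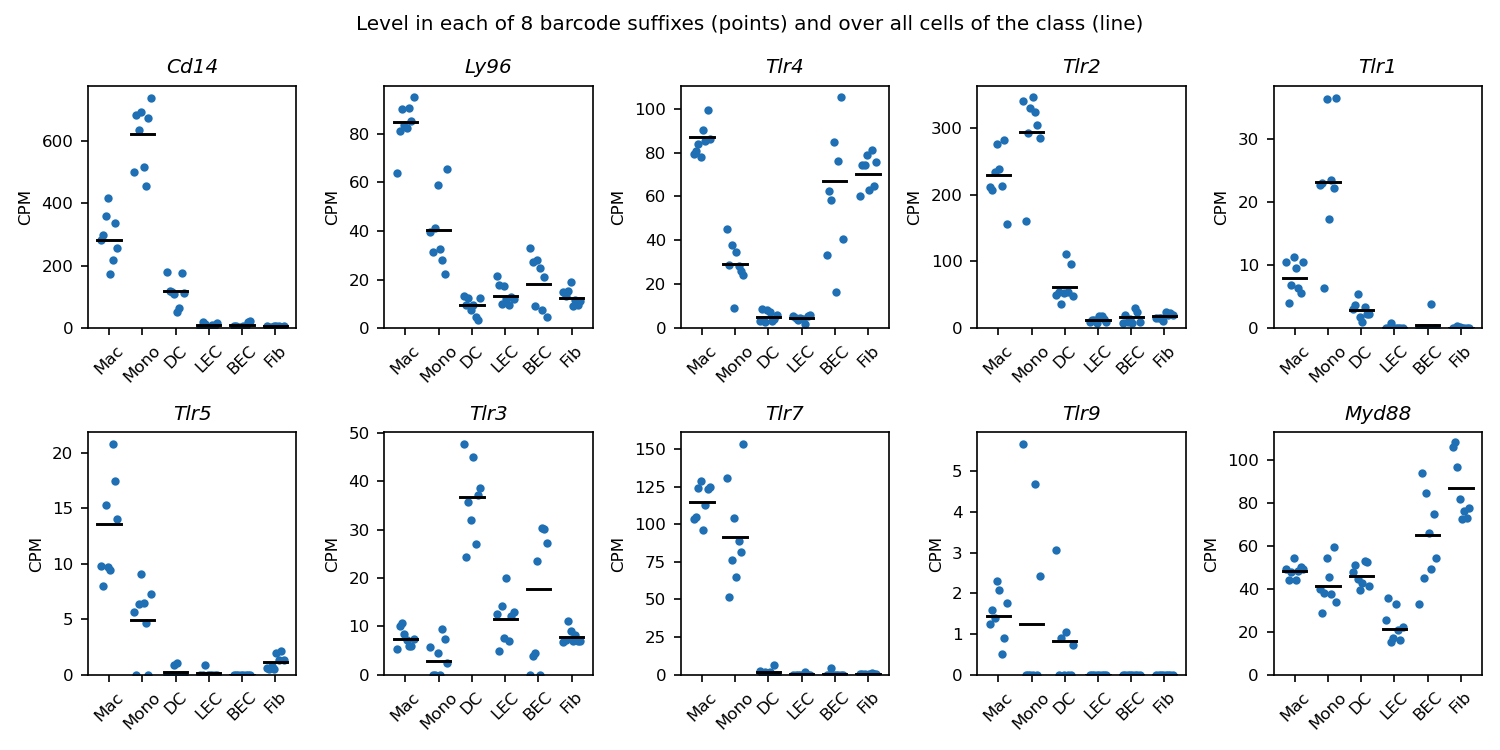
CPM of each member in 6 classes, 1 point for each of the 8 barcode suffixes, and a line for the pooled level (Mac, macrophage-like, Mono, monocyte-like, DC, dendritic-like, LEC and BEC, lymphatic and blood endothelial-like, Fib, fibroblast-like). The lymphatic endothelial-like points of Tlr4 (1.73 to 5.92 CPM) lie below all macrophage-like, blood endothelial-like and fibroblast-like points.

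Set side by side, macrophage-like cells were apart from fibroblast-like cells in 5 of the 7 members that reached 10 CPM in either class, all higher: Tlr7 (196 times, 151 to 259), Cd14 (46.1 times, 42.5 to 50.1), Tlr2 (12.3 times), Tlr5 (11.4 times) and Ly96 (6.74 times). Each was higher in 8 of 8 suffixes. Cd14, Tlr5 and Tlr7 reached 10 CPM only in the macrophage-like cells. Of all 9663 genes tested, 23.1% were higher and 22.9% lower in macrophage-like cells by the same rule. Tlr4 and Myd88 were not apart, and Myd88 was the lower one at 0.556 times (0.529 to 0.583) the fibroblast-like level, in 8 of 8 suffixes. On the log2(CPM + 1) scale, the median difference of the 7 members was 2.74, against -0.02 over all genes tested. The other 3 members lay under 10 CPM in both classes, and Tlr1 and Tlr9 among them had almost no fibroblast-like UMIs.

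Against lymphatic endothelial-like cells, macrophage-like cells were higher in 7 of 8 members tested, beside 20.4% of all genes higher and 23.1% lower. Of these, Tlr4, Tlr5 and Tlr7 reached 10 CPM in the macrophage-like but not in the lymphatic endothelial-like cells. Tlr4 was 18.8 times (13.8 to 26.2), Tlr2 18.3 times, Cd14 25.8 times, Ly96 6.47 times and Myd88 2.26 times (1.95 to 2.64) as high, in 8 of 8 suffixes each. Tlr5 and Tlr7 rested on 1 and 2 lymphatic endothelial-like UMIs, which gave ratios of 120 (21.5 to 4747) and 506 (140 to 4182). Tlr3 was the exception, lower in macrophage-like cells by less than 2-fold.

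Lymphatic endothelial-like cells differed from blood endothelial-like cells in 2 of 6 members tested, both lower, beside 11.7% of all genes lower and 10.5% higher. The blood endothelial-like level was 14.4 times (10.0 to 21.1) the lymphatic one for Tlr4 and 3.05 times (2.40 to 3.87) for Myd88, in 8 of 8 suffixes each. Tlr2, Tlr3, Cd14 and Ly96 had intervals of the ratio that included 1. The size of the Tlr4 ratio rests on the Selp and Sele subcluster described above. The other blood endothelial-like subclusters held 16.3 and 25.6 CPM, with intervals that still lay above that of the lymphatic endothelial-like level. Against fibroblast-like cells the same pair of members was lower: Tlr4 by 15.2 times (11.2 to 21.2) and Myd88 by 4.07 times (3.52 to 4.72), beside 15.9% of all genes lower and 18.4% higher, and Tlr2, Tlr3, Cd14 and Ly96 were not apart. The 2 comparisons share the lymphatic endothelial-like cells, and in both Tlr4 reached 10 CPM in the other class only.

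Within the lymphatic endothelial-like cells, 450 collecting, 71 capillary and 60 valve-type cells were set apart by markers. The collecting cells included a subcluster of 127 cells with a median of 5259 UMIs. Among endothelial-like cells, its leading genes included the mast cell genes Cma1, Tpsb2 and Mcpt4. The part of mast cell RNA in the collecting levels was not tested. Tlr4 was low in collecting, capillary and valve-type cells, at 4.58, 7.19 and 2.72 CPM, on 31, 7 and 3 UMIs. Myd88 was 22.0, 13.3 and 24.5 CPM, Tlr3 10.9, 14.4 and 12.7 CPM, and Ly96 12.9, 17.5 and 10.9 CPM. Of the 5 members tested between collecting and capillary cells, Cd14 alone was apart, at 6.06 against 20.5 CPM (3.39 times lower, 1.88 to 5.92), beside 9.13% of all genes lower and 6.66% higher. The capillary value of Cd14 rested on 20 UMIs, of which suffix 2 held 9 and suffix 8 held 8. Collecting cells were lower in only 3 of the 7 suffixes compared, and without suffix 2 the call was lost (log2 ratio -1.08, interval including 1). Valve-type cells held 32.6 CPM of Cd14, on 36 UMIs.

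**Figure D3:**
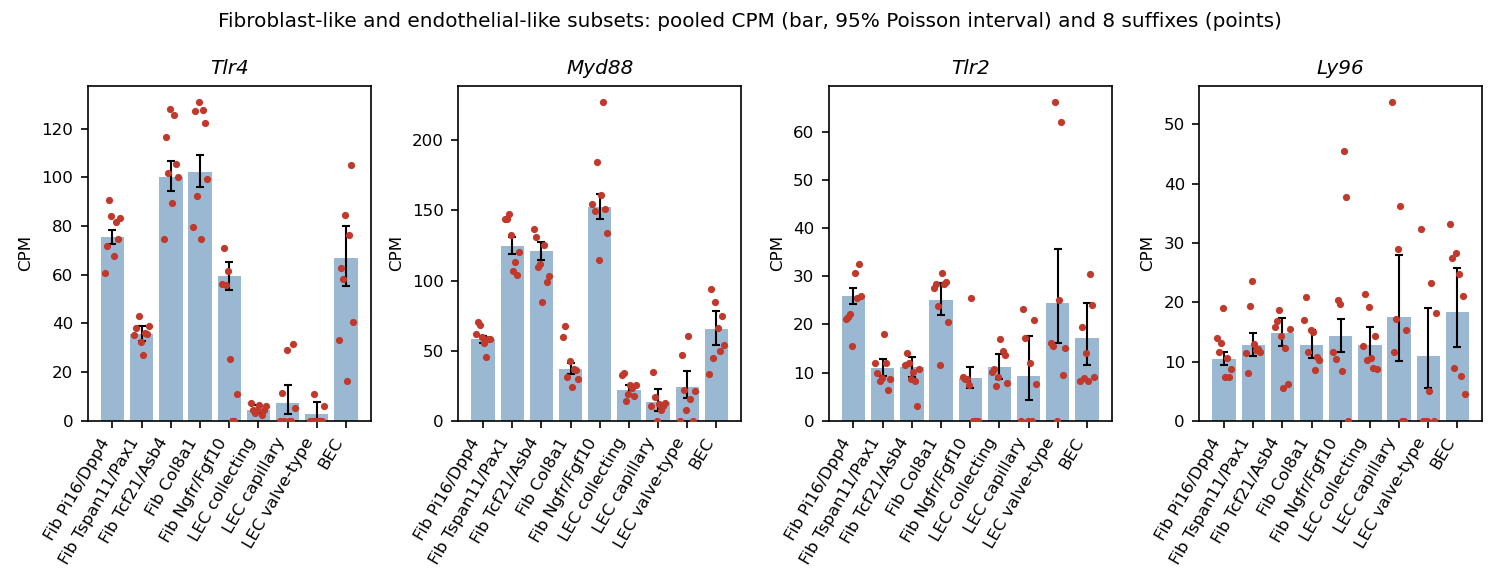
CPM of Tlr4, Myd88, Tlr2 and Ly96 in fibroblast-like (Fib), lymphatic endothelial-like (LEC) and blood endothelial-like (BEC) groups, with bars for the pooled level, 95% Poisson intervals and points for the 8 suffixes. Tlr4 is highest in the Col8a1 (102) and Tcf21 (100.3) cells, Myd88 in the Ngfr cells (153), and both are low in every LEC subset.

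Dendritic-like cells were apart from macrophage-like cells in 7 of 8 members tested. Only Tlr3 was higher, by 4.96 times (4.23 to 5.81), beside 12.3% of all genes higher. Tlr7 (64.5 times, 39 to 115), Tlr4 (16.3 times, 12.2 to 22.4), Ly96 (8.96 times), Tlr2 (3.76 times) and Cd14 (2.39 times) were lower, beside 21.6% of all genes, and so was Tlr5, on 2 dendritic-like UMIs (57.3 times, 15.8 to 474). Each of these 7 held its direction in 8 of 8 suffixes. Tlr4, Tlr5, Tlr7 and Ly96 reached 10 CPM in macrophage-like but not dendritic-like cells, and Tlr3 in dendritic-like but not macrophage-like cells. Myd88 was not apart, at 0.954 times (0.854 to 1.06).

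Monocyte-like cells were apart from macrophage-like cells in 5 of 8 members tested. Tlr1 (2.90 times, 2.15 to 3.86) and Cd14 (2.19 times, 2.08 to 2.31) were higher, beside 6.38% of all genes. Tlr4 was 2.96 times (2.34 to 3.80), Tlr5 2.73 times (1.55 to 5.32, 12 UMIs) and Ly96 2.09 times (1.71 to 2.59) lower, beside 10.8% of all genes. Cd14 was higher and Tlr4, Tlr5 and Ly96 lower in 8 of 8 suffixes, and Tlr1 was higher in 7 of 8. Tlr1 reached 10 CPM in monocyte-like but not macrophage-like cells, and Tlr5 in macrophage-like but not monocyte-like cells. These ratios depend on how monocyte-like cells are drawn. When each cell was named by its own markers, only 46 cells were monocyte-like, and Tlr1 turned to a log2 ratio of -0.72 against macrophage-like cells. The same naming ended the calls of Cd14 (0.89) and Tlr5 (-2.30) and brought one for Tlr7 (-1.17). Ly96 lay at the limit and lost its call without suffix 7 (-0.985) and with members and pathway genes among the variable genes (-0.999).

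A further 4 pairs of subsets were compared after their levels had been seen, so the ratios describe chosen pairs. In type 1 against type 2 dendritic-like cells, Tlr3 was 115 times (39 to 561) higher, and Tlr2 (5.05 times), Cd14 (2.70 times) and Myd88 (2.21 times) were lower, of 5 members tested, beside 13.2% of all genes higher and 9.85% lower. Between the Cd209-family-high and the Lyz1 and Ear2 macrophage-like cells, Tlr5 (4.56 times), Ly96 (3.11), Tlr4 (2.99) and Tlr7 (2.64) were higher in the former and Cd14 (2.03 times) lower, of 7 tested, beside 13.7% and 8.5% of all genes. In fibroblast-like cells, the Ngfr and Fgf10 subset held 4.10 times (3.63 to 4.64) the Myd88 and 2.86 times less Tlr2 than the Col8a1 and Adamts16 subset, of 5 tested, beside 6.4% and 9.1% of all genes. Monocyte-like cells held 3.65 times the Tlr1 and 3.44 times the Cd14 of the Cd209-family-high cells, and 3.50 times less Tlr4, 3.33 times less Tlr5 and 2.60 times less Ly96, of 8 tested, beside 9.19% and 14.5%. All these members kept their direction in 8 of 8 suffixes. Cd14 between the macrophage-like subsets lay at the 2-fold limit and fell short of it under 6 of the other settings.

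**Figure D4:**
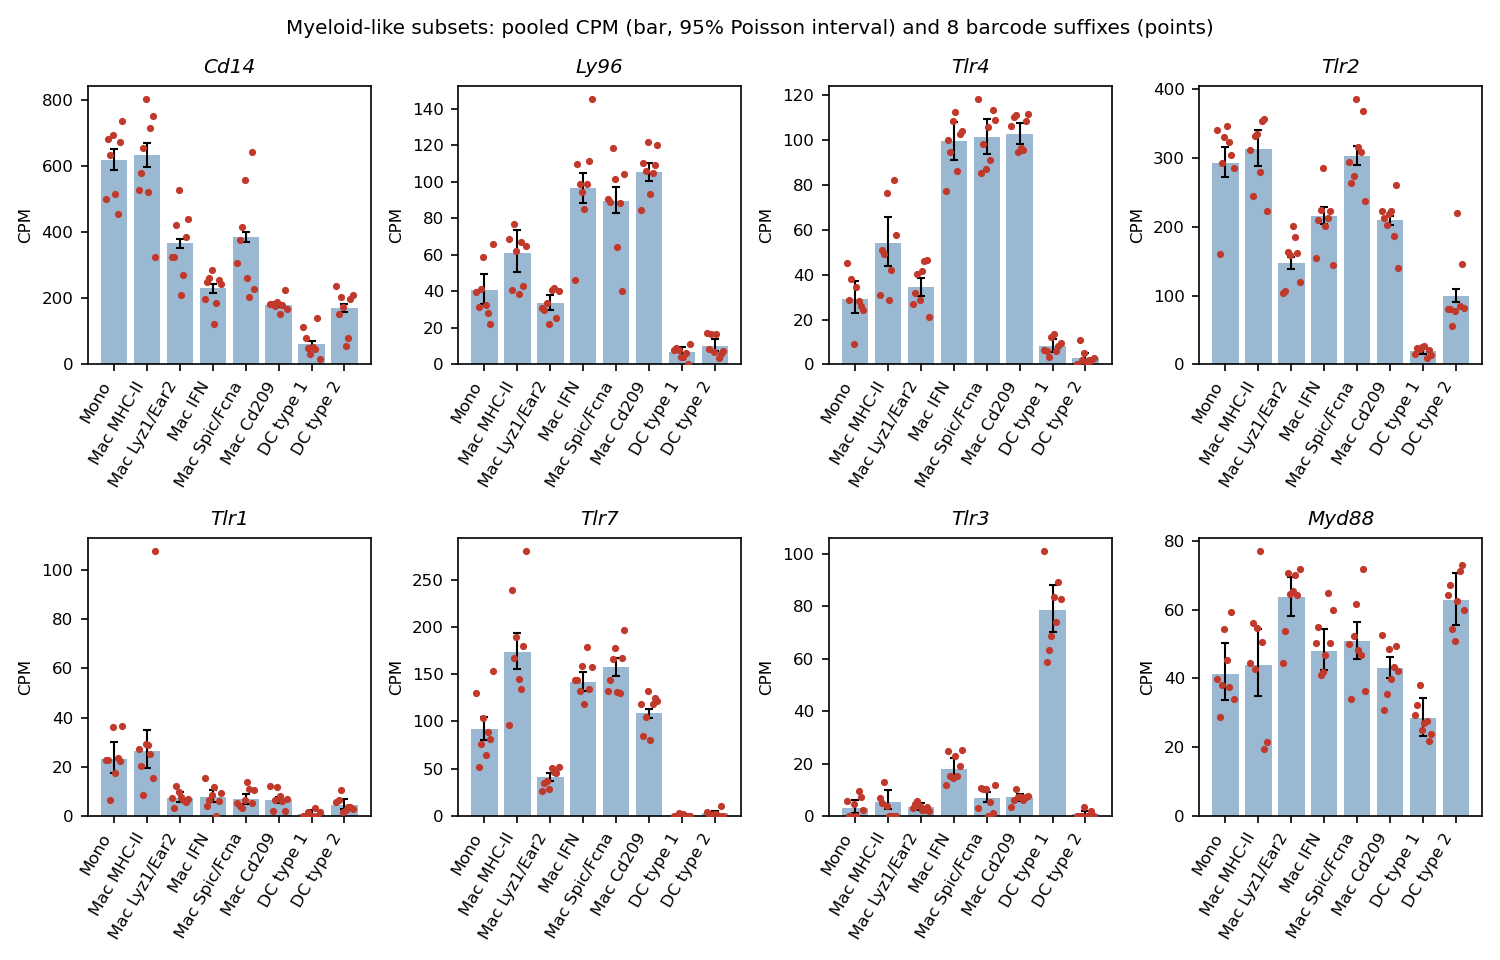
CPM of 8 members in monocyte-like (Mono), macrophage-like (Mac) and dendritic-like (DC) subsets, with bars for the pooled level, 95% Poisson intervals and points for the 8 suffixes. Tlr3 stands at 78.6 in DC type 1, Tlr4 and Ly96 fall together in the Lyz1/Ear2 subset (34.4 and 33.9), and Cd14 is highest in the MHC class II-high (633) and monocyte-like cells.

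Macrophage RNA moves with several of these genes, so its level was read from the complement genes C1qa, C1qb and C1qc, which macrophages make. Fibroblast-like cells held 0.765%, lymphatic endothelial-like 0.949%, blood endothelial-like 1.13%, B-like 1.94% and T-like cells 2.32% of the macrophage-like level. If all of this were macrophage RNA, lymphatic endothelial-like cells would show 0.826 CPM of Tlr4, 2.18 of Tlr2 and 2.68 of Cd14. The measured 4.64, 12.6 and 11.0 CPM lay above these values with their intervals. Across the lymphatic endothelial-like, blood endothelial-like and fibroblast-like cells, 19 of 30 levels lay above the expected ones. Those that did not were Tlr1, Tlr7 and Tlr9 in all of these classes and Tlr5 in both endothelial-like classes. Tlr7 in fibroblast-like cells was 0.584 CPM, under the 0.876 expected. In T-like cells Cd14 (3.22 CPM against 6.55) and Tlr7 (2.76 against 2.66) were not above, nor were Tlr5 and Tlr9 on 1 UMI or none. Tlr4 (11.5 CPM) and Tlr2 (12.0 CPM) did lie above in T-like cells, the background class for both. RNA from sources other than macrophages was not tested. In B-like cells Tlr5 and Cd14 were not above. In adipocyte-like cells Tlr1, Tlr3, Tlr5, Tlr7, Tlr9 and Ly96 were not above, and in proliferating-like cells Tlr3, Tlr5, Tlr7, Tlr9 and Ly96 were not. How much of the other members' levels in these last classes is macrophage RNA was not tested.

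**Figure D5:**
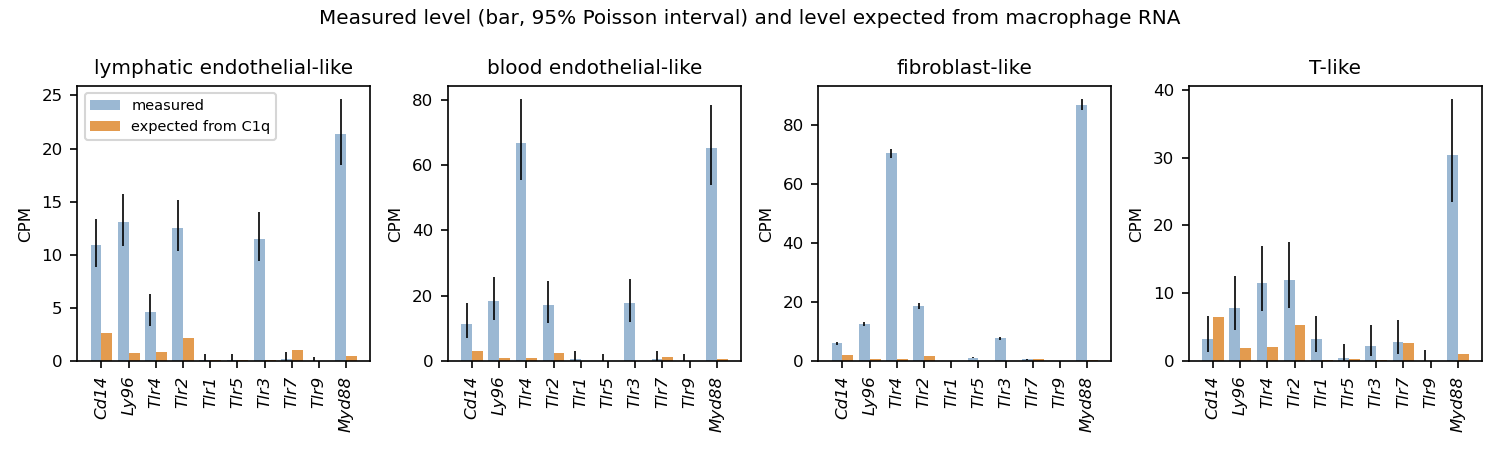
Measured CPM of each member (blue bars, 95% Poisson intervals) and the CPM expected from the share of C1q UMIs (orange bars) in 4 classes. In lymphatic endothelial-like, blood endothelial-like and fibroblast-like cells Myd88, Tlr3, Tlr2, Ly96, Cd14 and Tlr4 exceed the expected level, whereas Tlr7 does not. Tlr4 and Tlr2 also exceed it in T-like cells, a background class.

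The parts of the lipopolysaccharide receptor were found in the same cell most often among macrophage-like cells. Tlr4, Ly96 and Cd14 UMIs occurred together in 15.9% (15 to 16.9) of macrophage-like cells, 0.348% (0.235 to 0.496) of fibroblast-like and 0.344% (0.0417 to 1.24, 2 cells) of lymphatic endothelial-like cells. Of the other immune classes, monocyte-like cells had 5.65% and dendritic-like cells 0.126% (1 cell), and no B-like, T-like, NK-like or innate lymphoid-like cell held all of them. Mesothelial-like cells, which were deeper at a median of 13707 UMIs, reached 3.67% (2.60 to 5.03), and epithelial-like cells 2.93%. Tlr4 and Ly96 without regard to Cd14 were found together in 21.6% of macrophage-like and 5.86% of fibroblast-like cells. Tlr2 and Cd14 were found together in 62.5% of monocyte-like and 48.4% of macrophage-like cells, and in 2.24% of lymphatic endothelial-like cells. No member at all was found in 2.65% of macrophage-like, 20.5% of fibroblast-like, 48.5% of lymphatic endothelial-like and 50.6% of blood endothelial-like cells. These shares were not thinned, and median depths were 7483, 11060, 8638 and 4278 UMIs.

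The rest of the pathway was read from 7 lists with 65 genes. Of the 6 other Toll-like receptors and relatives, 4 reached 10 CPM in macrophage-like cells and none in fibroblast-like cells, where no one of these 4 exceeded 0.471 CPM. They entered only through the class where they are high, so no count of calls is given. Against macrophage-like cells, 2 of 4 were lower and 0 higher in dendritic-like cells, beside 21.6% and 12.3% of all genes. Cd180, a receptor relative of B cells and myeloid cells, was 77.9 CPM in macrophage-like, 100.4 in dendritic-like and 235 in B-like cells, against 0.471 CPM in fibroblast-like and 0.792 in lymphatic endothelial-like cells. Of the 10 helpers and trafficking genes, 4 were higher and 1 lower in macrophage-like than in fibroblast-like cells, beside 23.1% and 22.9% of all genes. The lower one was Lbp, the serum protein that carries lipopolysaccharide to Cd14, at 6.99 against 281 CPM. In lymphatic endothelial-like cells Lbp stood at 795 CPM, above the 142 CPM of blood endothelial-like cells. Cd36, a scavenger receptor that assists Tlr2, was 928 CPM in macrophage-like and 1118 CPM in blood endothelial-like cells, against 157 in lymphatic endothelial-like cells. Unc93b1, which carries the endosomal receptors to their place, was 472 CPM in macrophage-like cells, against 31.7 in the lymphatic endothelial-like class. Atp6ap2, a subunit of the vesicular proton pump, was 319 against 63.1 CPM.

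Among the 6 other adaptors, 3 of 4 tested were higher in macrophage-like than in fibroblast-like cells and 0 lower, beside 23.1% and 22.9% of all genes. These 3 reached 10 CPM in macrophage-like but not in fibroblast-like cells, so they were more likely to be called apart. Ticam1, the Tlr3 adaptor, was 26.8 CPM in dendritic-like, 23.5 in macrophage-like, 7.92 in lymphatic endothelial-like and 8.65 CPM in fibroblast-like cells, and Ticam2, which links Tlr4 to it, was 46.0 CPM in macrophage-like and under 1 CPM in both of the latter. Pik3ap1, a link to phosphoinositide signalling, was 188 CPM in macrophage-like and 0.953 CPM in fibroblast-like cells. Of 15 kinases and ubiquitin ligases tested, 9 were higher and 1 lower than in fibroblast-like cells, beside the same shares of all genes, 23.1% and 22.9%, with Irak2 at 147 against 11.0 CPM and Peli1 at 470.0 against 90.9 CPM. Ikbkb, a kinase that frees NF-kB, was 236 CPM in lymphatic endothelial-like cells and 28.4 in fibroblast-like cells, and Peli2 was 117 against 55.7 CPM. Of 6 transcription factors, 2 were higher and 0 lower, beside 23.1% and 22.9% of all genes: Irf5, which acts downstream of Myd88, at 128 against 3.62 CPM, and Rel at 485 against 66.2 CPM. Irf5 reached 10 CPM in macrophage-like but not in fibroblast-like cells. Nfkb1 was near equal in macrophage-like (819 CPM) and fibroblast-like cells (866) and lower in lymphatic endothelial-like cells (307), and Irf7 was 45.9, 32.8 and 14.2 CPM. Dendritic-like cells exceeded all of these classes in Nfkb1 (1180 CPM), Rel (1177) and Irf5 (290.4). There 2 of 6 transcription factors were higher and 0 lower than in macrophage-like cells, beside 12.3% and 21.6% of all genes.

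Of 9 inhibitors of the pathway tested, 3 were higher and 2 lower in macrophage-like than in fibroblast-like cells, close to the 23.1% and 22.9% of all genes for a list this short. Irak3, a kinase relative that blocks Myd88 signalling, was 268 CPM in fibroblast-like and 47.5 in macrophage-like cells, and Socs1 was 232 against 10.5 CPM. Both were the lower ones, and both were also low in lymphatic endothelial-like cells, at 18.4 and 7.24 CPM. Tnfaip3 (A20) was among the higher ones, at 369 against 178 CPM, and Dusp1 was not apart, at 2953 against 1660 CPM. In dendritic-like cells, 3 of 10 inhibitors were higher and 3 lower than in macrophage-like cells, beside 12.3% and 21.6% of all genes. Against blood endothelial-like cells, 5 of 10 inhibitors were lower in lymphatic endothelial-like cells and 0 higher, beside the 11.7% of all genes. Of 11 genes that the pathway induces, 4 of 7 tested were higher and 2 lower in macrophage-like than in fibroblast-like cells, beside 23.1% and 22.9% of all genes. Cxcl2, a neutrophil chemokine, was 4893 against 312 CPM, Tnf 268 against 3.97 and Il1b 189.8 against 3.72 CPM, whereas Ptgs2 was 35.4 against 387 CPM. Tnf and Il1b reached 10 CPM in macrophage-like but not in fibroblast-like cells. Il1b was higher still in dendritic-like cells, at 2469 CPM. Of 8 induced genes tested, 3 were higher and 1 lower in dendritic-like than in macrophage-like cells, beside 12.3% and 21.6% of all genes.

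The induced genes were low in lymphatic endothelial-like cells: 7 of 7 tested were higher in macrophage-like cells, beside 20.4% of all genes, and 4 of 4 were lower than in fibroblast-like cells, beside 15.9%. They split the macrophage-like subsets, with 9 of 9 tested lower in the Cd209-family-high than in the Lyz1 and Ear2 cells, beside the 8.5% of all genes. Il1b was 6.64 against 929 CPM, Tnf 109 against 662, Ptgs2 13.5 against 108 and Cxcl2 2546 against 6963 CPM. Il1b thus reached 10 CPM in the Lyz1 and Ear2 but not in the Cd209-family-high cells. Genes that enter through the group where they are high are more likely to be called apart. The counts of induced genes given here are therefore descriptions. In this pair, chosen after its levels had been seen, the subset with the higher Tlr4, Ly96, Tlr5 and Tlr7 had the lower Cd14 and the lower induced genes. Monocyte-like cells were higher than the Cd209-family-high cells in 9 of 9 induced genes tested, beside 9.19% of all genes. Whether receptor levels and induced genes are linked was not tested. In type 1 against type 2 dendritic-like cells, 7 of 8 induced genes were lower, beside 9.85% of all genes, with Tnf at 41.2 against 419.7 CPM. The type 1 cells were also the lower ones in Tlr2, Cd14 and Myd88, and the higher ones in Tlr3. Fos, an immediate early gene that rises during tissue dissociation, ran from 393 CPM in B-like to 8210 CPM in mesothelial-like cells among classes of 50 or more cells, with 767 in dendritic-like, 1840 in lymphatic endothelial-like, 2530 in macrophage-like and 5959 in fibroblast-like cells. The part of dissociation in the levels of induced genes was not tested.

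Over 30 classes and subsets of 50 or more cells, the genes whose log2(CPM + 1) followed each member most closely were named by Pearson correlation, as a description, since the groups share libraries and depth. Tlr7 was followed by Csf3r (0.962), Ms4a7 (0.959) and Nlrc4 (0.953), of which the first pair also served as class markers. Tlr2 was followed by Mfsd1 (0.940), Cd300ld (0.936) and 4930430E12Rik (0.934), and Cd14 by Cd68 (0.939), Igsf6 (0.924) and Ptpro (0.922). Ly96 was followed by Slc38a7 (0.928), Gm15708 (0.897) and Pikfyve (0.878), Tlr5 by Mfsd11 (0.902), Cd300ld3 (0.895) and Rragc (0.895), and Tlr1 by Gm31718 (0.903), the marker Pou2f2 (0.902) and Tlr7 (0.894). Tlr9, on its few UMIs, was followed by Gm35154 (0.896), Unc93b1 (0.895) and Gm20513 (0.875). Tlr4, Myd88 and Tlr3 had looser followers: Ifi204 (0.831), Dnm1 (0.826) and G530011O06Rik (0.818) for Tlr4, Irf1 (0.789), Glb1l (0.786) and Mt1 (0.769) for Myd88, and Pdia5 (0.709), Arhgef11 (0.701) and Mapk7 (0.681) for Tlr3. Among the members themselves, Tlr2 and Cd14 had 0.912, Tlr4 and Ly96 0.556, Tlr4 and Cd14 0.188 and Tlr4 and Myd88 0.574.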

How the data were processed

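Gene expression was measured by single-cell RNA sequencing in droplets. The deposited matrix holds the authors' raw UMI counts for each gene in each barcode. Cell Ranger 7.1.0, Seurat 4.3.0.1 and mm10 are listed, per the submitters' processing notes. The annotation and strand setting used for counting are not given in the sources used here, and positions come from GENCODE M21 on GRCm38.

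Barcodes with at least 500 UMIs, 300 genes and at most 15% mitochondrial UMIs were kept, which removed 380. Doublets were scored against simulated ones (expected rate 6%), and 719 (3.04%) were removed. Cells were clustered with scanpy 1.11.5 (2000 variable genes, 30 components, 15 neighbours, Leiden resolution 1), with members and pathway genes left out of the variable genes. Clusters took class and subset names from marker lists, and 8.29% of cells stayed unnamed. Members and lists were chosen with earlier results of these data known. Ratio calls were tested on simulated Poisson counts from a shared profile, with no variation between cells, suffixes or mice, as the intervals assume. The simulation therefore covers counting error only. For macrophage-like against fibroblast-like cells (8841 genes), 100 of 100 genes changed 4-fold were called and 0% of unchanged ones. For collecting against capillary cells (8607 genes) 100 of 100 were called, with 7% of genes changed 1.5-fold and 0.845% of unchanged ones.

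All members are named in every class with 10 or more UMIs. From each pathway list, up to 4 genes at 20 CPM or more and 3-fold apart among macrophage-like, dendritic-like, lymphatic endothelial-like and fibroblast-like cells are named, and for each member the 3 genes most like it. Genes with values beyond this rule were chosen after their values were seen. Alternatives were a stricter filter, doublets kept, Leiden resolution 2.0, all genes variable, cells gated one by one, a mean over cells, a 4-fold limit and leaving out each suffix.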

Additional observations from a re-analysis of the deposited data

Results flagged for a closer look

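Levels of the members in the 8 suffixes were searched for a suffix far from the others, in 31 sets of a member and a class with 10 or more UMIs in every suffix. Chance alone flags about 1 in 20 such sets. Ly96 in macrophage-like cells was 63.96 CPM in suffix 1 (255 UMIs), while the other suffixes lay between 81.0 and 95.1 CPM. Ly96 in mesothelial-like cells was 15.4 CPM in suffix 7 (38 UMIs), against 23.1 to 26.7 CPM in the others. Tlr2 in monocyte-like cells was 160.5 CPM in suffix 2 (56 UMIs), against 285 to 346 CPM in the others. No label says what suffixes 1, 2 and 7 stand for.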

How the results depend on the processing

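No paired analysis was possible because the labels give each group 1 replicate and tie no suffix to a mouse, so suffixes were not treated as replicates and their directions are descriptions. Of 186 recomputed counts of members apart or detected, 175 stayed within 1.5 times the reported one. A 4-fold limit gave 0 members apart for monocyte-like against macrophage-like, 1 for lymphatic against blood endothelial-like, 0 for collecting against capillary, 2 for type 1 against type 2 dendritic-like, 1 for Cd209-family-high against Lyz1 and Ear2, 1 for Ngfr and Fgf10 against Col8a1 and Adamts16, and 0 for monocyte-like against Cd209-family-high cells. Collecting against capillary cells gave 3 members with a mean over cells, 0 with doublets kept and 0 to 1 when a suffix was left out (0 without suffix 2). Gating cells one by one gave 3 members for monocyte-like against macrophage-like cells, and the Tlr1 log2 ratio reversed to -0.72. That gating gave no subsets, and the stricter filter left no type 2 dendritic-like cells, so these comparisons have no value there. Of 1308 recomputed ratios, 1291 kept the call or the lack of one, 12 lost the call, 4 gained it and 1 with a call reversed. Ratios without a call in both settings counted as kept even where their direction changed. Of 784 levels, 84 moved outside the Poisson interval of the reported pooled level, which covers counting error only. They were not compared with the spread of the suffixes. All 56 shares moved on thinning, since shares follow depth. With 1 UMI in lymphatic endothelial-like cells worth 0.113 CPM, Tlr1, Tlr5, Tlr7 and Tlr9 there are at the limit of detection.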
